A study of Mus musculus with 4 samples.

Results

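Called domains of histone H4 lysine 16 acetylation (H4K16ac) were compared between mouse embryonic stem cells (ESC) and neural progenitor cells (NPC). In 1320 places on chromosomes 1 to 19, 1 called ESC domain was met by 2 or more separate called NPC domains. They are called split regions here. They were found by joining all islands of the ESC and NPC lists that shared at least 1 base, and keeping the joined regions made of exactly 1 ESC island and several NPC islands. The members were thus chosen by the called positions of the islands in the same 2 libraries that are compared. An island is a set of neighbouring 200 bp windows that the authors' caller scored as enriched. The caller bridged up to 600 bp of windows that did not pass, so an island need not be enriched throughout. The 1320 split regions were drawn from 69310 regions in all, of which 14434 held islands of both cell types. Among those 14434, 11697 paired 1 island with 1 island, 881 were the mirror image (several ESC islands inside 1 NPC island), and 536 held several islands of both.

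H4K16ac is laid down mainly by the acetyltransferase MOF (KAT8), which works in the MSL and NSL complexes, and it is removed by deacetylases such as SIRT1. In purified nucleosome arrays the mark hinders folding of the fibre, and in cells it is found over promoters, enhancers and the bodies of active genes. Because it can cover long stretches of chromatin, it is usually called as broad domains and not as sharp peaks.

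Both cell types came from 46c, an ES cell line with a GFP reporter in Sox1, a gene switched on in neural progenitors. The groups were undifferentiated 46c ESC and cells taken on day 5 of differentiation with NB27 and Neuro2 supplements and sorted for GFP. Each had 1 H4K16ac library made with the same Millipore antibody from chromatin digested with micrococcal nuclease (MNase), and 1 MNase input library. The lists held 17935144 island reads in ESC and 24386370 in NPC, and the total depth of the libraries is unknown. With 1 library per cell type no difference had a replicate check and no p-value was computed. Reads outside islands are not listed, so an NPC gap is a stretch without a called island and may still carry the mark. All positions are on mm9 and are given without genes, since no annotation of that build was used here.

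Because the calls chose these regions, the number of NPC islands and the presence of a gap are descriptions only. Most split regions, 1154 of 1320 (87.4%), held 2 NPC islands. Another 140 held 3, 22 held 4 and 4 held 5, which gave 2836 NPC islands and 1516 gaps. At the edge of the rule, 23 members counted as split through an NPC island that shared only 200 bp with the ESC island. The widest of these 23 was the ESC island at 25846401 to 25873400 on chromosome 2, whose NPC islands overlapped it by 200 and 26000 bp. The other 2 widest began at 72772001 on chromosome 8 and 50006201 on chromosome 11. Just outside the rule, 17 regions with 1 ESC and 1 NPC island had a further NPC island that touched the end of the ESC island without sharing a base. The widest of these was the ESC island at 72725801 to 72743600 on chromosome 15, next to an NPC island that began at 72743601. The other 2 widest began at 62358201 on chromosome 4 and 27275801 on chromosome 2.

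The gaps that NPC opened inside ESC islands were mostly short. Their median width was 1000 bp (95% interval of the median 1000 to 1000 bp), with quartiles of 800 and 1400 bp and a maximum of 22400 bp. Gaps of exactly 800 bp numbered 656 of 1516 (43.3%, exact interval 40.8% to 45.8%), and 547 others (36.1%) were 1000 to 1400 bp wide. No distance below 800 bp occurred between neighbouring islands of either list, so 800 bp, or 4 windows, is the smallest gap that the caller left. Since the caller had the same settings in ESC, at least 1 window inside each such stretch passed there. In 1017 members (77.0%, 74.7% to 79.3%) every gap was at most 1400 bp. Long gaps of 4000 bp or more numbered 99 (6.53%, 5.34% to 7.89%) and lay in 98 members. In the mirror image, where NPC islands spanned ESC gaps, the median was also 1000 bp, whereas 158 of 987 gaps (13.8% to 18.4%) reached 4000 bp.

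**Figure D1:**
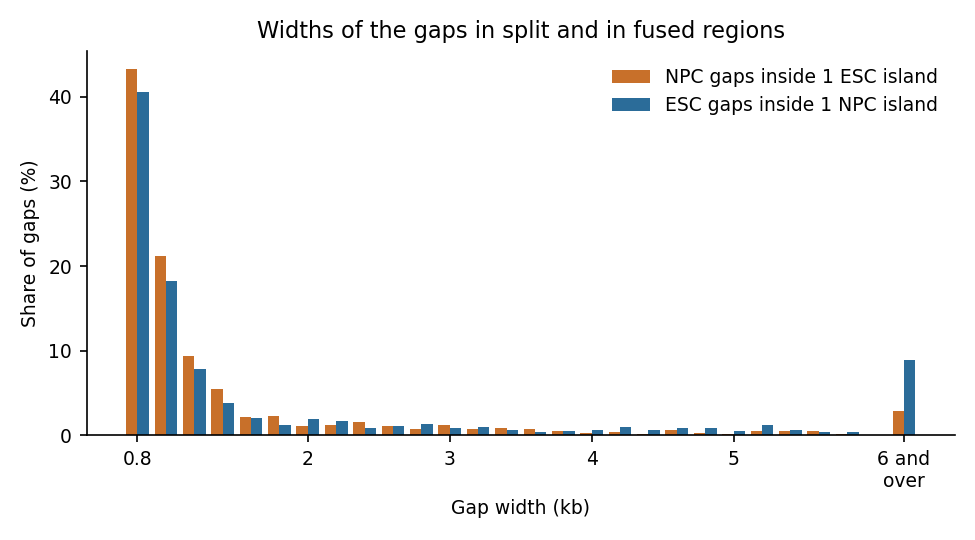
Share of gaps (vertical axis, percent) by gap width (horizontal axis, kb), for the 1516 NPC gaps inside split ESC islands and the 987 ESC gaps inside NPC islands that span several ESC islands. Both sets are highest at 0.8 kb, and the last pair of bars collects gaps of 6 kb and over.

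Most of the ESC domain was still called in NPC. Gaps took a median of 10.4% of the ESC island (9.76% to 10.9%), with quartiles of 6.02% and 17.2%. In 1045 members (79.2%) they took under 20%, and in 29 members (2.20%, 1.48% to 3.14%) at least 50%. NPC islands covered a median of 83.7% of the ESC island (82.8% to 84.6%). The rest lay at the ends, where a median of 0.769% and an upper quartile of 10.3% of the ESC island had no NPC island. Summed over all members, 2349600 of 21127600 ESC bases (11.1%) lay in gaps. The share fell with width, with a Spearman rho of -0.60 between gap share and ESC island width over the 1320 members, a relation in which width is part of both measures.

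A split was not the same as a loss of called bases. NPC islands reached past 1 end of the ESC island in 610 members (46.2%) and past both ends in 228 (17.3%), and stayed inside it in 482 (36.5%, 33.9% to 39.2%). NPC called more bases than the ESC island held in 472 members (35.8%, 33.2% to 38.4%). In 167 (12.7%), 1 NPC island alone was wider than the ESC island. For these, "split" describes the joined calls more than the shape, since a shorter ESC island bridged the space between NPC islands. Median called widths were 12800 bp in ESC (12200 to 13400 bp) and 12200 bp in NPC (11800 to 12800 bp).

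Gaps lay across the whole length of the ESC islands and less often near the ends. On a scale of 0 at the centre of the ESC island to 1 at its end, the median gap centre lay at 0.333 (0.314 to 0.351). A gap cannot touch the end of the ESC island, because an NPC island must overlap it on each side. Place was therefore also read within the stretch open to a gap of that width, a setting chosen after seeing the data. With that stretch cut into 3 equal parts, 459 gaps (30.3%) fell in the left part, 625 (41.2%, 38.7% to 43.8%) in the middle and 432 (28.5%) in the right. In the members with 2 NPC islands, the places below 0.1 and from 0.9 upward together held 112 of 1154 gaps (9.71%, 8.06% to 11.6%). The open stretch asks for only 1 window of overlap at each end, but an NPC island there must also be called. The narrowest NPC island of any member was 400 bp wide. The lower share near the ends therefore cannot be told apart from what the calls allow.

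**Figure D2:**
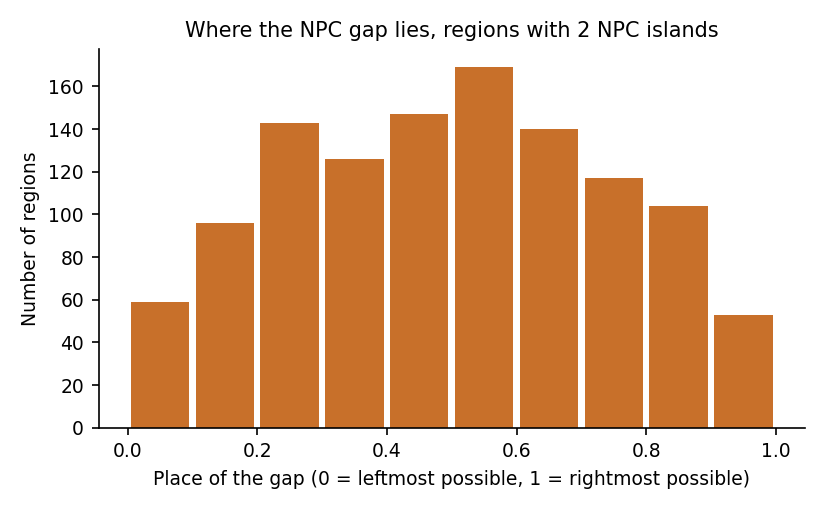
Number of split regions (vertical axis) by place of the gap, for the 1154 members with 2 NPC islands, from 0 (leftmost place open to the gap) to 1 (rightmost). The 2 outermost bars hold 59 and 53 regions, and the highest, from 0.5 to 0.6, holds 169.

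The NPC islands of a region were unequal in width. The widest had a median of 8200 bp (7800 to 8600 bp) and made up a median of 64.8% of the NPC bases. The narrowest had a median of 3200 bp (3200 to 3400 bp), and in 365 members (27.7%) it was at most 2000 bp wide. In 681 members (51.6%, 48.9% to 54.3%) at least 1 NPC island was still broad, at 8000 bp or more, against 1016 members (77.0%) with an ESC island of that width. Read density, in reads per kb of island, was a median of 79.1 (78.2 to 80.0) in the widest NPC island and 82.6 (82.0 to 83.8) in the narrowest. The narrowest was the denser one in 749 members (56.7%, 54.0% to 59.4%).

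Wide ESC islands were split far more often than narrow ones. Among regions with 1 ESC island and any NPC island, 1320 of 13017 (10.1%, 9.63% to 10.7%) were split. The share was 0.848% (0.612% to 1.14%) for ESC islands under 4000 bp and 6.04% (5.35% to 6.79%) from 4000 to 8000 bp. It was 20.2% (18.7% to 21.8%) from 8000 to 16000 bp and 43.7% (40.7% to 46.6%) at 16000 bp and over. A wide island offers more places for a break, so shares were set beside each other only within a width class. The mirror share, NPC islands that spanned several ESC islands, was lower in every class, at 0.257%, 3.59%, 11.8% and 30.1% (27.8% to 32.5%). Joining islands of each list across gaps of up to 2000 bp lowered the widest class to 27.6% split, beside 27.3% in the mirror image, and from 4000 to 8000 bp put the split share (0.591%) below the mirror share (0.707%). NPC islands lay 800 bp apart more often than ESC islands over the whole lists, in 11.0% against 5.24% of neighbouring pairs.

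**Figure D3:**
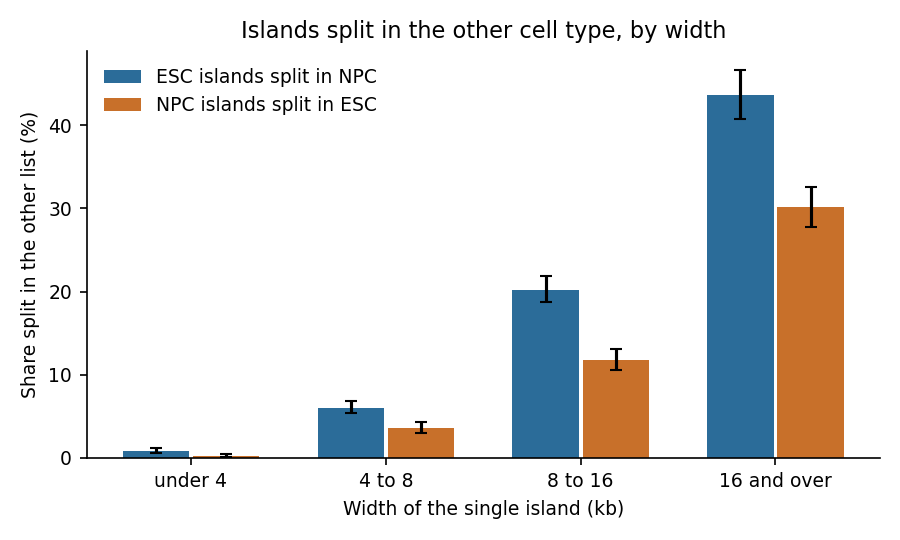
Share of islands split in the other list (vertical axis, percent) by the width of the single island (horizontal axis, kb), with exact 95% intervals of the share as error bars. ESC islands split in NPC reach 43.7% and NPC islands split in ESC 30.1% in the widest class.

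The share of all island reads that fell in split regions was 10.2% in ESC and 7.29% in NPC. The median member had 1042 reads in ESC (range 154 to 32807) and 959.5 in NPC (range 161 to 28085), for which counting error alone is 3.10% and 3.23%. Scaled to 1000000 island reads of each list, the log2 ratio of NPC to ESC reads had a median of -0.50 (-0.53 to -0.46) and an SD across members of 0.70. Over all 14434 regions called in both lists the median was -0.49 (-0.50 to -0.48). Reads were 2-fold or more lower in NPC in 228 members (17.3%, 15.3% to 19.4%), where 28.0% of all shared regions were. They were 2-fold or more higher in 34 members (2.58%), where 6.17% of all shared regions were. The rule used the same calls, so nothing is read from these counts.

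Densities of the NPC and ESC islands were close. The median was 79.2 reads per kb in ESC (78.6 to 80.0) and 80.0 in NPC (79.4 to 80.7). Scaled to island reads, the median log2 NPC over ESC of density was -0.40 (-0.41 to -0.39), whereas it was 0.04 without scaling and 0.01 when scaled by reads in shared regions, so its direction depended on the scaling. Members above 0 numbered 11 of 1320 (0.833%) scaled to island reads and 773 (58.6%) without scaling. Over all shared regions the shares above 0 were 1.65% and 39.4%. Density was 2-fold or more lower in NPC in 64 members (4.85%, 3.75% to 6.15%), against 15.5% of all shared regions, and 2-fold or more higher in 0 members, as in 0% of all shared regions. Members were wider than 1-to-1 regions, whose median ESC island was 4600 bp, so ratios were also set side by side within width classes. Within the class of 16000 bp and over, the scaled median was -0.39 (-0.40 to -0.37) in split and -0.39 (-0.40 to -0.37) in unsplit ESC islands. From 8000 to 16000 bp it was -0.41 (-0.43 to -0.39) and -0.44 (-0.45 to -0.43), and from 4000 to 8000 bp -0.39 (-0.43 to -0.36) and -0.49 (-0.50 to -0.48). Under 4000 bp it was -0.47 (-0.63 to -0.41) in the 42 split and -0.68 (-0.70 to -0.66) in the unsplit ESC islands. The log2 of reads in that class was 0.65 (0.0074 to 1.15) and -0.46 (-0.48 to -0.44). NPC reads were summed over whole NPC islands, so 0.65 can include reads that lie beside these short ESC islands. From 4000 to 8000 bp the log2 of reads was -0.34 (-0.42 to -0.22) in split and -0.59 (-0.62 to -0.56) in unsplit ESC islands. From 8000 to 16000 bp it was -0.57 in both, and at 16000 bp and over -0.53 (-0.58 to -0.47) and -0.42 (-0.45 to -0.39). ESC islands of 4000 to 8000 bp that were split had a median of 73.7 reads per kb in ESC (72.3 to 76.0), against 79.2 (78.7 to 80.0) in unsplit ones of that width. These classes share their calls with the rule, so the values are descriptions.

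Members with longer gaps had lower NPC over ESC ratios of reads, and those with the longest gaps also had wider ESC islands, with a median of 20200 bp against 12000 bp where the widest gap was 800 bp. With 800 bp as the widest gap, 534 members had a median log2 of reads of -0.39 (-0.43 to -0.35) and kept 88.7% of the ESC island called in NPC. The 483 members with a widest gap of 1000 to 1400 bp had a median of -0.47 (-0.53 to -0.43), and the 205 with 1600 to 3800 bp had -0.68 (-0.79 to -0.60). The 98 with a gap of 4000 bp or more had -1.06 (-1.28 to -0.91) and kept 54.6% (48.9% to 60.6%). Among these 98, reads were 2-fold or more lower in NPC in 57 (58.2%, 47.8% to 68.1%), where 28.0% of all shared regions were. In the classes with shorter gaps the shares were 9.74%, 13.7% and 25.9%, in order of gap width. Reads inside gaps are missing from the NPC list, so a longer gap lowers the ratio by construction. By density, where called width is taken out, the medians over the same classes were -0.38, -0.38, -0.44 and -0.52 (-0.61 to -0.46). The interval for members with 800 bp as the widest gap was -0.40 to -0.37, and the SD across members with the longest gaps was 0.33. Before scaling, median ESC density was 84.8 reads per kb (79.4 to 88.8) with the longest gaps and 79.3 (78.1 to 80.4) with 800 bp. Median NPC density was 79.5 (76.9 to 82.4) and 80.5 (79.4 to 81.5) in the same 2 classes. The rho between widest gap and log2 density was -0.14 over the 1320 members, which share 1 library per cell type.

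**Figure D4:**
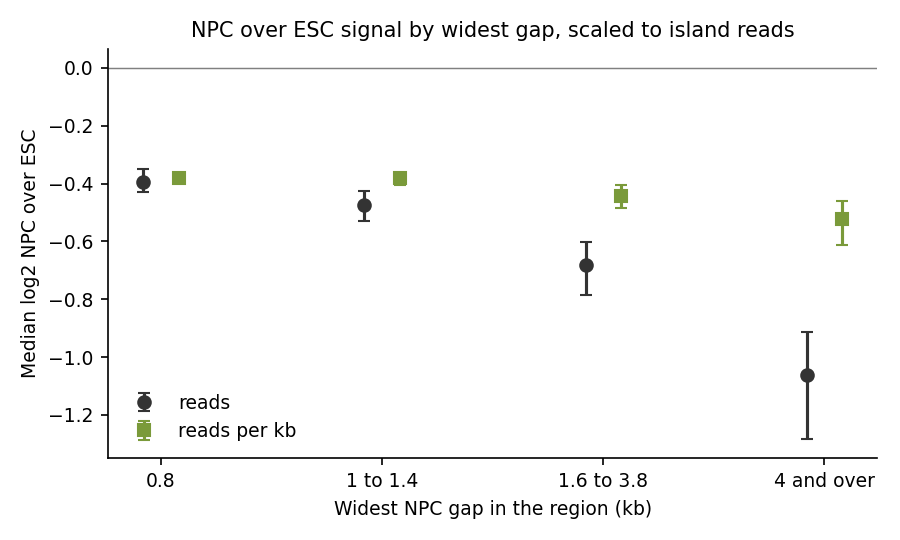
Median log2 NPC over ESC, scaled to island reads (vertical axis), of reads (circles) and of reads per kb (squares), by the widest NPC gap in the region (horizontal axis, kb), with 95% intervals of the median as error bars. The medians of reads run from -0.39 to -1.06 and those of reads per kb from -0.38 to -0.52.

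The members cut into most pieces differed widely in how much of the ESC island stayed covered. On chromosome 11, the ESC island at 68593401 to 68636200 spanned 42.8 kb with 4116 reads. In NPC it was met by 5 islands of 5, 1.8, 3.4, 19 and 13.8 kb, with 402, 178, 303, 1596 and 1065 reads. Their 4 gaps were 800, 1000, 800 and 800 bp, so 92.1% of the ESC island stayed covered. The log2 of reads was -0.66 (-0.72 to -0.59). By contrast, the ESC island at 32005601 to 32040800 on chromosome 2 was dense in ESC, with 4702 reads in 35.2 kb (134 reads per kb), and 38.6% of it stayed covered. Its 5 NPC islands, of 2.8, 1.4, 1.8, 2.8 and 9.4 kb, held 1508 reads and left gaps of 13800, 5200, 1200 and 800 bp. The log2 of reads was -2.08 (-2.17 to -2.00) and of density -1.13. The ESC island at 80660801 to 80687000 on chromosome 7 was like it, with 3880 ESC reads at 148 reads per kb. NPC had 1037 reads there in 5 islands at 76.3 reads per kb, a log2 of reads of -2.35 (-2.45 to -2.25). The fourth region with 5 NPC islands lay at 115498001 to 115539200 on chromosome 11, with 3393 ESC and 2207 NPC reads and gaps of 800, 1000, 9600 and 800 bp. The widest of those with 4 NPC islands, 66.2 kb from 77627001 on chromosome 10, had 94.9% of its bases covered, with 5934 ESC and 6391 NPC reads.

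**Figure D5:**
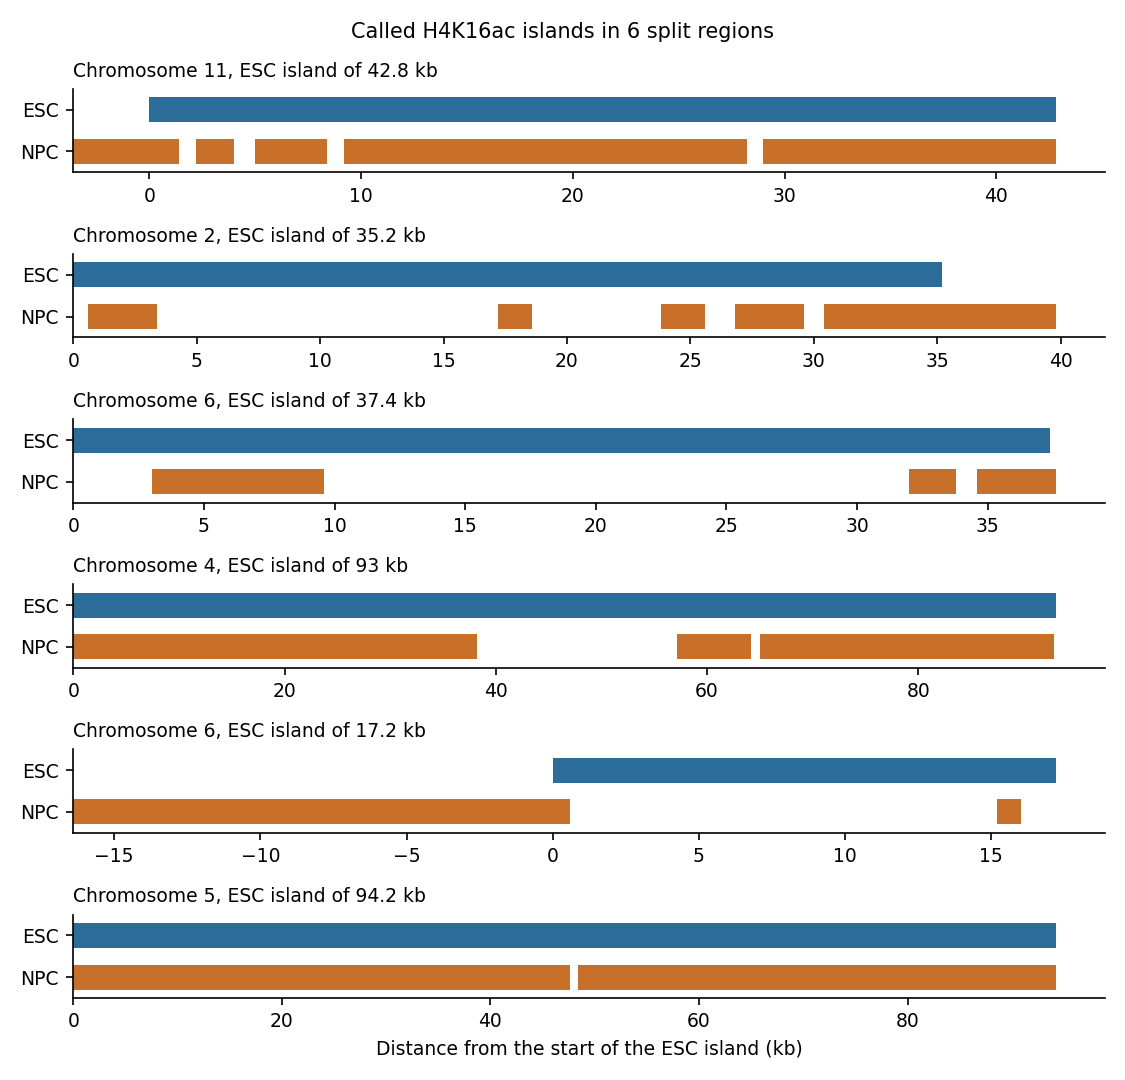
Called islands of ESC (upper bar) and NPC (lower bars) in 6 split regions, by distance from the start of the ESC island (horizontal axis, kb), each panel with its own scale. From the top, the panels show the region with most NPC islands on chromosome 11, a chromosome 2 region with gaps of 13800 and 5200 bp, the 2 widest gaps (22400 and 19000 bp), the largest gap share (84.9%) and a 94.2 kb island with 1 gap of 800 bp.

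The widest gap lay on chromosome 6, at 125075801 to 125098200, inside an ESC island of 37.4 kb at 125066201 to 125103600. ESC had 3351 reads in that island. NPC had 761 reads in 3 islands of 6.6, 1.8 and 3 kb, at 66.8 reads per kb against 89.6 in ESC. The log2 of reads was -2.58 (-2.70 to -2.47), and 29.9% of the ESC island stayed covered. The next gap, 19000 bp at 134168601 to 134187600 on chromosome 4, opened in a far wider ESC island of 93 kb with 7420 reads. There 78.5% of the island stayed covered by 3 NPC islands of 38.2, 7 and 27.8 kb with 6589 reads, a log2 of -0.61 (-0.66 to -0.57). The others in this group were 15600 bp from 114773401 on chromosome 6, 15400 bp from 77785001 on chromosome 15 and 15000 bp from 102901401 on chromosome 11. Each of these 3 had 1 NPC island on either side of the gap, of 8 and 4 kb, 16 and 1.6 kb, and 5.2 and 5.4 kb in turn. Their log2 of reads was -1.30, -1.56 and -1.77, and their log2 of density -0.12, -0.47 and -0.44. These regions were named for their wide gaps, so missing called width was part of the choice and nothing is read from the contrast. Without scaling, these 3 values of density were 0.33, -0.03 and 0.0036.

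Where the gap took the largest part of the ESC island, the NPC islands mostly lay beside it. On chromosome 6, the ESC island at 113674601 to 113691800 held 1322 reads in 17.2 kb, and a gap of 14600 bp took 84.9% of it. An NPC island of 17 kb with 1390 reads overlapped its left end by 600 bp, and an NPC island of 0.8 kb with 98 reads lay near its right end. On chromosome 5, an ESC island of 6.6 kb from 37182001 had the same arrangement, with 69.7% in a gap of 4600 bp between NPC islands of 5.4 and 0.8 kb. On chromosome 12, an ESC island of only 1.8 kb at 110271201 to 110273000 bridged NPC islands of 7 and 17 kb. It held 154 ESC reads, the fewest of any member, against 2062 NPC reads in those islands, a log2 of 3.30 (3.06 to 3.55) that reflects called width, since the log2 of density was -0.44. Besides the chromosome 6 island with the widest gap, the last region of this group, from 5960601 on chromosome 19, had 881 ESC and 952 NPC reads and 61.5% of the island in a gap.

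The 5 ESC islands with most reads were 86.8 to 124.4 kb wide, and their widest gaps ranged from 800 to 19000 bp. The longest of these gaps was that of the 93 kb island on chromosome 4 described above. The island with most reads, on chromosome 8 at 19914001 to 20038400, had 32807 ESC reads at 264 reads per kb, and its NPC islands of 95 and 24.8 kb had 23556 and 4529 reads on either side of a gap of 5000 bp. A multi-copy origin of the reads of this dense region was not tested. On chromosome 4, the ESC island at 138951201 to 139053000 had 11041 reads, and NPC had 10026 reads on both sides of a gap of 1000 bp. On chromosome 5, the ESC island at 118503801 to 118598000 had 9014 reads. NPC had 10122 there, in islands of 47.6 and 45.8 kb at 109 and 108 reads per kb, parted by 800 bp. On chromosome 17, an ESC island of 86.8 kb from 56482401 had a gap of 800 bp near its right end, between NPC islands of 83 and 2 kb. NPC islands covered 97.9% of it, as its right end past the last NPC island was also uncalled. Gaps took 0.982%, 0.849% and 0.922% of these last 3 ESC islands.

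The 5 members with the lowest log2 of density had ESC densities of 176 to 224 reads per kb, above the member median of 79.2. ESC density is the lower part of that ratio, so picking the lowest ratios favours dense ESC islands by construction. On chromosome 2, the ESC island at 71184001 to 71198800 had 2608 reads at 176 reads per kb, and NPC had 450 reads at 62.5 reads per kb in islands of 4.6 and 2.6 kb. Its log2 of density was -1.94 scaled to island reads and -1.50 without scaling. On chromosome 7, the ESC island at 52372601 to 52385800 had 2951 reads at 224 reads per kb, and NPC 466 reads at 83.2 reads per kb, a log2 of density of -1.87. A second ESC island of chromosome 7, beginning at 52708801, counted 2913 reads, against 523 in NPC, and had a value of -1.71. The other 2, from 32816201 on chromosome 2 and 95475001 on chromosome 3, had -1.80 and -1.78. All 5 stayed below -1 without scaling. At the other end, the 5 highest values, from 0.05 to 0.28, belonged to ESC islands of 3.8 to 5.6 kb with 252 to 369 reads. The highest was at 93539401 to 93544000 on chromosome 1, with 269 ESC reads at 58.5 reads per kb and 271 NPC reads at 96.8 reads per kb in islands of 1.2 and 1.6 kb. Its log2 of reads was -0.43 (-0.68 to -0.18), since a gap of 1800 bp took 39.1% of the island.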

How the data were processed

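Per the submitters' processing notes, SICER 1.1, Bowtie 0.12.7, CASAVA 1.8.2, bedtools 2.10.1, SAMtools 0.1.7 and build mm9 were used, with no role given for each tool. The names of the deposited lists have the form of SICER's output and give windows of 200 bp, gaps of up to 600 bp and a rate of false discoveries of 0.01. Column 4 of each list was taken to be the read count of an island, an unscaled whole number deposited by the authors. Duplicate removal and the use of the input are not given in the sources used here. Islands that missed the rate were not in the lists, so a longer gap may hold some. The caller joined nearer windows, so such an island would lie at least 800 bp from the islands on both sides.

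Ends were read as the last base and positions count from 1. Islands of chromosomes 1 to 19 were joined from 1 shared base, with no filter on reads. Log2 ratios used reads per 1000000 island reads of the whole list. NPC reads and bases of a region were those of its whole NPC islands, also where these reached past the ESC island. Shares and read ratios have exact Clopper-Pearson 95% intervals, and medians order-statistic intervals. Intervals of read ratios cover counting error only, because reads lack molecular identifiers and may repeat a molecule. The others treat regions as independent draws, which neighbours may not be. No interval covers variation between cultures.

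Members, width classes and naming rules were chosen with earlier results of these data known. The rule named the 5 members with most NPC islands, the widest gap, the largest gap share, most ESC reads, and the highest and lowest log2 density with at least 200 reads in each list. It also named 3 regions on each side of the threshold, with ties put in order of ESC width. Gap classes were set after seeing the data. The rules on genes were not run, since the gene table at hand was of another build. Alternatives covered overlap, joining, read and width minimums, list length, X and Y, scaling and the smallest gap.

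The code found all 200 splits simulated among 1000 ESC islands, with 0 false ones, and bedtools 2.31.1 gave the same 1320 split regions. The simulated islands were at least 4000 bp wide and more than 4000 bp from other ESC islands. Simulated NPC islands reached little past them, so regions with several ESC islands could not arise. The 0 false splits therefore say nothing about such regions. With reads simulated for 14434 shared regions, the median log2 of 200 with a 2-fold change was 0.999. That ratio was taken directly from the simulated counts, so it did not check the scaling or the density. Python 3.11.15, numpy 2.4.6, pandas 2.3.3, scipy 1.17.1 and matplotlib 3.10.9 were used.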

Additional observations from a re-analysis of the deposited data

How the results depend on the processing

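The main values were recomputed 55 times with a changed setting: 31 results remained inside the reported interval (for counts, within 1.5 times), 22 fell outside it and 2 changed sign. No paired analysis was possible because each cell type had 1 library, and for the same reason no library was left out in turn. Settings with gaps of at least 1600 bp, without ESC islands of 120 or more reads per kb, or with the open range for the gap were chosen after seeing the data. Unknown library depth limits the reading of gaps, and except where stated the cause was not tested.

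The number of split regions was 624 with islands joined across gaps of up to 2000 bp, 303 with gaps of at least 1600 bp and 238 with gaps of at least 2000 bp, which remove short gaps by construction. The gap median was 4200 bp with joining and 3000 bp from 1600 bp upward. The gap share was 8.70% when 50% of the shorter island had to overlap, 23.4% with joining, 7.84% with at least 200 reads, 8.93% with equal list lengths, 26.3% with gaps from 2000 bp and 23.0% from 1600 bp. Gap position was 0.314 with the 50% overlap, 0.288 with joining and 0.411 within the open range. The median log2 of reads was -0.61 with the 50% overlap, -0.86 with joining, -0.43 with at least 200 reads and -0.094 scaled by shared-region reads. That of density was -0.45 with joining, and turned to 0.011 scaled by shared-region reads and 0.045 without scaling. The share split at 16000 bp and over was 39.6% with the 50% overlap, 27.6% with joining and 39.5% with at least 200 reads. The split share exceeded the mirror share in 27 of 28 width classes and settings, the exception being 4000 to 8000 bp with joining. Of 45 values for the other width classes and the mirror image, 22 left their interval.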

Other observations

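Split regions occurred on all 19 autosomes. Among regions with 1 ESC island and any NPC island, the share split ranged from 7.18% on chromosome 3 (5.11% to 9.77%) to 12.9% on chromosome 17 (10.4% to 15.7%). Among ESC islands of at least 8000 bp, it ranged from 21.2% on chromosome 15 (15.5% to 27.8%) to 34.7% on chromosome 13 (26.2% to 44.1%). On chromosome 3 the share of such broad islands split was 28.3% (19.4% to 38.6%). Neighbouring split ESC islands lay a median of 424 kb apart (376 to 484 kb), and 285 of 1301 neighbouring pairs (21.9%) were within 100 kb. Adding X and Y gave 1 more split region, for 1321 in all, and a share split of 43.5% at 16000 bp and over. Few NPC islands lay outside chromosomes 1 to 19, which held 48170 of them, with 48257 neighbouring pairs in the whole list. For ESC these numbers were 39508 and 40548. The count for X and Y therefore says little about how often ESC islands there were split.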
